A study of Homo sapiens with 12 samples.

Results

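The HOX genes, 27 of 18417 genes measured, are described here in a human leukaemia line and its adriamycin-resistant subline, each with and without decitabine. Members were taken as every gene whose symbol is HOXA, HOXB, HOXC or HOXD followed by a number and that had an array row of its own. RefSeq lists 39 such genes, 11 HOXA, 10 HOXB, 9 HOXC and 9 HOXD. The 27 members hold 1 HOXA gene (HOXA2), all 10 HOXB genes, 7 HOXC genes and all 9 HOXD genes. Each member had a single row. HOXC4 and HOXC6 share 1 row and, with the other 10 HOXA genes, were not analysed here as single genes. The HOXA cluster is therefore described by 1 gene only.

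HOX genes encode homeodomain transcription factors that lie in clusters, HOXA on chromosome 7, HOXB on chromosome 17, HOXC on chromosome 12 and HOXD on chromosome 2. Gene order within a cluster follows the order in which the genes are used along the body axis. HOX proteins bind DNA together with the TALE homeodomain proteins of the PBX and MEIS families. Trithorax group proteins such as KMT2A (MLL1) maintain the active state of HOX genes, and Polycomb group proteins maintain the silent state. In blood, HOXA and HOXB genes are known for high expression in stem and progenitor cells and lower expression on differentiation. HOXA9 with MEIS1 is best known as a driver of acute leukaemias with KMT2A fusions.

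The 12 Affymetrix arrays fell into 4 groups of 3. KA is K562/ADR, a subline of K562 made resistant by adriamycin (doxorubicin) and kept in 50 nM of it, and KS is K562 itself, a line from a patient with chronic myeloid leukaemia. The groups were KA given 5 nM decitabine for 72 hours, untreated KA, KS given the same decitabine treatment, and untreated KS. Decitabine is a cytidine analogue that depletes DNA methyltransferases and so lowers CpG methylation as cells divide. The study's stated question is how decitabine counteracts multidrug resistance. What the untreated cells were given, and whether adriamycin stayed in the medium while decitabine was added, is not stated. Resistance is represented by 1 subline. KA differs from KS both as a line and by exposure to adriamycin, and the parts of these in any difference cannot be told apart. Replicates are not said to be separate cultures, so p-values reflect only the spread between arrays. In bulk RNA, fewer cells that carry a transcript and less transcript per cell cannot be told apart.

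Values are log2 intensities between 0.23 and 13.19, with array medians of 4.96 to 5.01. Within groups, arrays correlated at 0.990 to 0.995. The least similar to its own group was untreated KS replicate 3 (mean r 0.990), and the fits that use it were repeated without it. The share of all genes called was then 26.5% between untreated lines, 31.4% with decitabine in KS and 11.1% for the difference of the responses. Of 36, 40 and 7 calls of the genes picked for naming in those comparisons, 33, 37 and 7 held, with differences of 0.789 to 1.34 times those reported. The cell type markers were not among these genes. The calls lost were HOXD11, CBX6 and NFE2L1 between untreated lines and HOXB8, MEIS1 and CBX7 with decitabine in KS. Of the 10 markers of K562 that were listed, 8 had rows, and the group means of all 8 lay above 3.39, the highest lower quartile of any array. A group mean at or below 3.39 was not shown to exceed background. Between genes the intensities depend on the probes, so each gene is compared only with itself. A value above the quartile is also no proof of a transcript: 31 marker genes of lymphoid, myeloid, epithelial and stromal cells had a median of 4.75. Over the 27 HOX genes the mean of the 12 arrays ran between 2.97 and 9.46, with a median of 4.86.

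Of the 27 HOX genes, 23 lay above the quartile in all 4 groups. HOXD3 did so in 3 groups, HOXC5 and HOXD10 in 1 group each, and HOXD12 in none. Means above 6 were found for 6 genes, HOXB2, HOXB3, HOXB4, HOXB6, HOXB9 and HOXC9. Another 14 genes had means between 4 and 6, and 7 had means below 4. The row shared by HOXC4 and HOXC6 averaged 4.66 ± 0.10 in treated KA, 4.56 ± 0.21 in untreated KA, 4.77 ± 0.09 in treated KS and 4.69 ± 0.14 in untreated KS (SD, n = 3 each).

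Promoter sequences are shown because decitabine is known to act through CpG sites and HOX cofactors through promoter motifs. Of the 27 members, 11 had a RefSeq promoter window of 300 bases (GRCh38.p14), running from 250 bases before the start to 50 after it. The first sequence is the promoter of HOXD11, the HOX gene called between the untreated lines, with its CpG dinucleotides, the bases that DNA methyltransferases modify, in capitals. It covers the 250 bases before the start at chr2:176107030-176107279 on the plus strand and holds 23 CpG. The second is the same stretch of HOXB1, the HOXB gene with a window, at chr17:48531012-48531261 on the minus strand. Here the capitals mark TGATNNAT, a motif bound by PBX and HOX proteins together, and the stretch holds 7 CpG.
HOXD11: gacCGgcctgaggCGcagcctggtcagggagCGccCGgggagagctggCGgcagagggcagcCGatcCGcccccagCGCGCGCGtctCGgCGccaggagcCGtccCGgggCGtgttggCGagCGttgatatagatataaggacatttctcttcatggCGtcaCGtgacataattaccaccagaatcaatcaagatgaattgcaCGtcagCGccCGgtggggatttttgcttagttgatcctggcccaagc
HOXB1: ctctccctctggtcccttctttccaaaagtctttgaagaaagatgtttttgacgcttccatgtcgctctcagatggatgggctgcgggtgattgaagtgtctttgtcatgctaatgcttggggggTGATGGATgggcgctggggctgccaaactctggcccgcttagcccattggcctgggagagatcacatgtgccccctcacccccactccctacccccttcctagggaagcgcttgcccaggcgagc

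Across the 11 HOX windows the number of CpG ran between 4 (HOXD4) and 36 (HOXD1), with a median of 23. The median over all 35116 RefSeq windows of that length was 14, with quartiles of 4 and 28. At least 14 CpG were found in 8 of the 11 HOX windows. TGATNNAT, searched on both strands, was present in 3 of the 11 (HOXA2, HOXB1 and HOXD11), against 7.4% of all windows. CCAAT, a common promoter motif searched in the same way, was present in 9 of 11, against 34.6%. Overlap between matches of the 2 motifs was not counted. These matches describe letters, not occupied sites, and methylation was not measured.

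MIR196A1 lies between HOXB9 and HOXB13, and MIR10A lies beside HOXB4. miR-196a is known to direct cleavage of HOXB8 mRNA. Both mature sequences are given from RefSeq, with the seed, bases 2 to 8, in capitals; that of miR-196a-5p is identical from MIR196A1 at chr17:48632532-48632553 (minus strand) and from MIR196A2 in the HOXC cluster, and that of miR-10a-5p is at chr17:48579904-48579926 (minus strand).
hsa-miR-196a-5p: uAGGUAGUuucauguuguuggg
hsa-miR-10a-5p: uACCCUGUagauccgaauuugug

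Changes are differences of log2 intensity, given with the standard error (SE) of limma's fit over all 12 arrays. A gene is said to have risen or fallen at a Benjamini-Hochberg adjusted p under 0.05 over the 18417 genes. Decitabine in KA moved 4 of the 27 HOX genes (14.8%), against 14.6% of all genes. In KS it moved 6 (22.2%), against 30.3% of all genes. Untreated KA and untreated KS differed in 1 HOX gene (3.7%), against 25.7% of all genes. The treated lines differed in 3 (11.1%), against 27.0% of all genes. In each comparison but decitabine in KA, the share for HOX genes was thus below that for all genes. The median level of the HOX genes was 4.86, against 4.75 for the 31 markers of other cell types. The part of signal level in these shares was not tested. With 1 array left out, decitabine in KA moved 3 HOX genes (without treated or untreated replicate 1) or 2 (without any other array), against 1653 to 2002 of all genes, where the full set of arrays gave 2694. By direction, 2 HOX genes rose and 2 fell with decitabine in KA, where 9.66% of all genes rose and 4.96% fell. In KS 3 rose and 3 fell, where 14.6% of all genes rose and 15.7% fell. Between untreated lines 1 was higher in KA, against 11.6% of all genes, and none was lower, against 14.1%. Between treated lines 2 were higher in KA, against 15.1% of all genes, and 1 was lower, against 11.9%.

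Arrays of the 2 groups did not overlap for 8 HOX genes with decitabine in KA, against 35.9% of all genes, and for 9 in KS, against 40.0%. The corresponding counts were 3 between untreated lines, against 38.4% of all genes, and 7 between treated lines, against 41.5%. The comparison of untreated lines uses the same untreated arrays as the decitabine comparisons, and that of treated lines the same treated arrays.

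The HOX changes were small. The largest was 0.58 (HOXB6 in KS), while differences of at least 1 were found for 2.38% of all genes between untreated lines, 2.79% between treated lines, 1.93% with decitabine in KS and 0.5% with decitabine in KA. The 95% intervals of all 27 genes lay within 1 of no change in those comparisons, in KA with decitabine and between treated lines. The median absolute change over the HOX genes was 0.10 with decitabine in KA (0.13 over all genes) and 0.17 in KS (0.15 over all genes). It was 0.11 between untreated lines (0.15 over all genes). The signed medians were -0.05 in KA with decitabine, 0.05 in KS with decitabine and 0.05 between untreated lines, against -0.02, -0.01 and 0.02 over all genes.

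**Figure D1:**
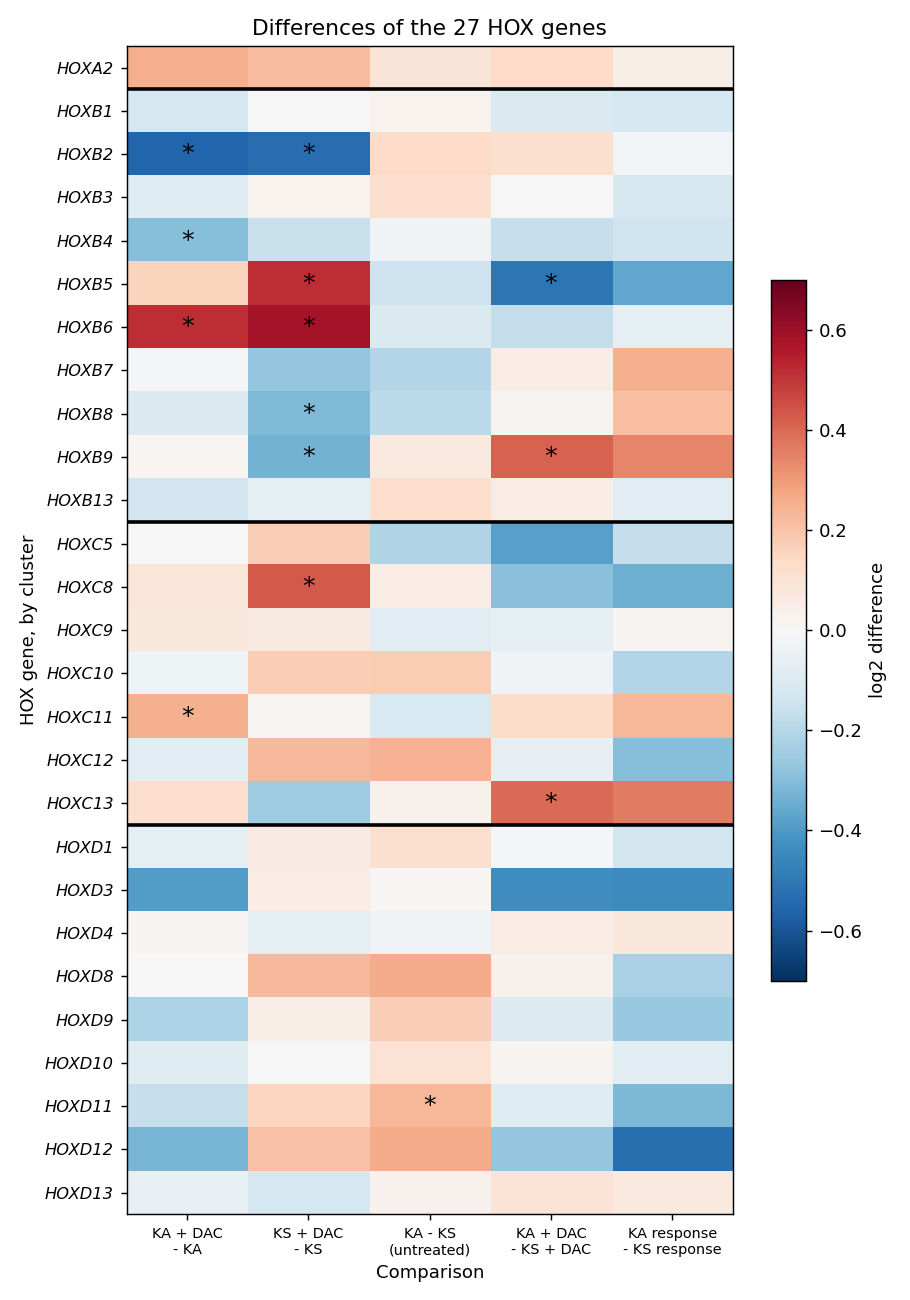
Heat map of the log2 difference of every HOX gene (rows, by cluster) in 5 comparisons (columns); an asterisk marks an adjusted p under 0.05 over all genes. Marked cells lie mostly in the HOXB cluster under decitabine, where HOXB2 is lower by 0.56 and 0.54 and HOXB6 higher by 0.52 and 0.58 in KA and KS.

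Decitabine moved HOXB2 and HOXB6 in both lines, in opposite directions. HOXB2, which in mouse acts in hindbrain patterning downstream of HOXB1, had 7.87, 7.84 and 7.85 in the treated KA arrays, against 8.36, 8.43 and 8.44 in untreated KA. In KS it had 7.75, 7.70 and 7.77 in treated arrays, against 8.36, 8.16 and 8.30 in untreated arrays. All 6 treated arrays lay below all 6 untreated ones. The fall was 0.56 in KA (1.47-fold, SE 0.07, limma adjusted p = 0.000319) and 0.54 in KS (1.45-fold, SE 0.07, limma adjusted p = 7.05e-05).

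HOXB6, which is expressed in erythroid cells and whose overexpression expands mouse myeloid progenitors, had 6.31, 6.22 and 6.09 in treated KA, against 5.47, 5.88 and 5.72 in untreated KA. It had 6.26, 6.43 and 6.43 in treated KS, against 5.68, 5.81 and 5.86 in untreated KS. Treated and untreated arrays did not overlap in either line. HOXB6 rose by 0.52 in KA (1.43-fold, SE 0.10, limma adjusted p = 0.00546) and by 0.58 in KS (1.50-fold, SE 0.10, limma adjusted p = 0.000796). The 4 calls of HOXB2 and HOXB6 held in each of 13 alternative fits, including the fit for KS without untreated replicate 3.

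These 2 genes make up the overlap between the lines, out of 4 HOX genes called in KA and 6 in KS. Over all genes, 1787 were called in both lines in the same direction, which is 66.3% of those called in KA and 32.0% of those called in KS. No arrays are shared between the KA and the KS decitabine comparisons.

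HOXB4, known for expanding haematopoietic stem cells when overexpressed, had 7.03, 6.95 and 6.91 in treated KA, against 7.15, 7.31 and 7.32 in untreated KA. It fell by 0.30 in KA (SE 0.07, limma adjusted p = 0.0156). The groups did not overlap, but the call was lost without treated KA replicate 2 or 3 or untreated KA replicate 2 or 3, with adjusted p of up to 0.0645. In KS the difference was -0.16 (limma adjusted p = 0.124). HOXB3, whose transcription unit overlaps that of HOXB4, had differences of -0.09 in KA and 0.03 in KS (limma adjusted p = 0.406 and 0.805).

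The remaining HOXB calls under decitabine were in KS. HOXB5, which marks long-term stem cells in mouse, had 5.53, 5.34 and 5.38 in treated KS, against 4.78, 4.80 and 5.13 in untreated KS. All treated values were the higher ones, and HOXB5 rose by 0.52 (1.43-fold, SE 0.14, limma adjusted p = 0.0141). The call was lost without treated KS replicate 1 or untreated KS replicate 1 or 2, with adjusted p of up to 0.0606. In KA the treated values of 5.14, 4.55 and 5.04 overlapped the untreated values of 4.61, 4.83 and 4.83 (difference 0.15, limma adjusted p = 0.525).

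HOXB9, a gene of thoracic patterning in mouse, had 9.23, 9.26 and 9.05 in treated KS, against 9.61, 9.49 and 9.43 in untreated KS. It fell by 0.33 without overlap (1.26-fold, SE 0.08, limma adjusted p = 0.00892), and all 13 alternatives kept the call. In KA it had 9.47, 9.60 and 9.71 in treated arrays, against 9.53, 9.57 and 9.63 in untreated arrays, which overlap (difference 0.02, limma adjusted p = 0.931).

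HOXB8, which blocks myeloid differentiation when overexpressed in mouse, had 5.79, 5.72 and 5.94 in treated KS, against 6.29, 5.89 and 6.20 in untreated KS. The groups overlapped. It fell by 0.31 (SE 0.10, limma adjusted p = 0.0248), but the call was lost in 5 of 13 alternatives, among them the fit without untreated KS replicate 3 (adjusted p = 0.0723). In KA the difference was -0.10 (limma adjusted p = 0.525). HOXB7, the neighbour of HOXB8, had a difference of -0.27 in KS (limma adjusted p = 0.0594) and -0.02 in KA (limma adjusted p = 0.942).

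**Figure D2:**
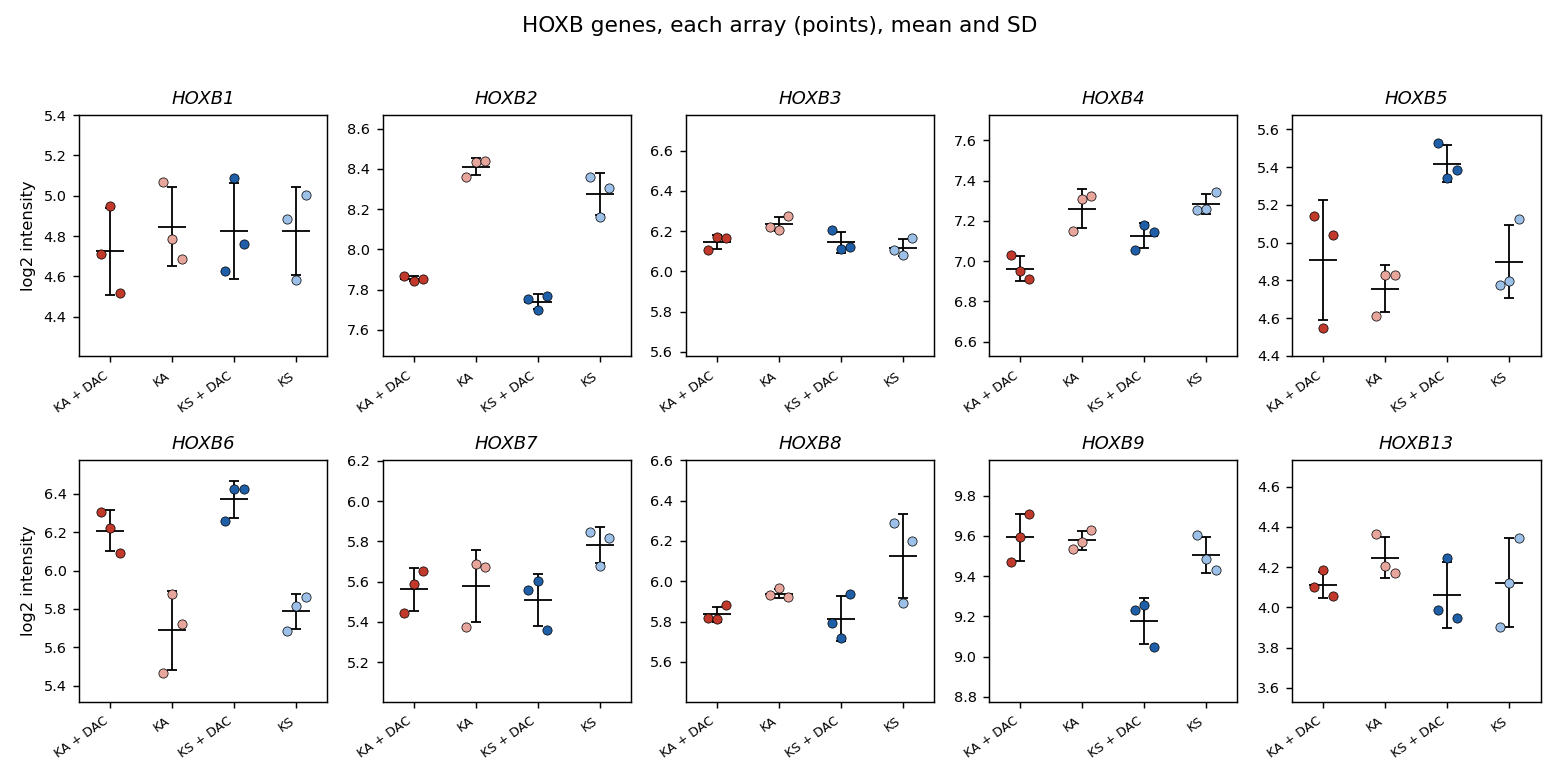
Log2 intensity of HOXB genes on each array (points) with mean and SD (n = 3 arrays per group), for treated KA, untreated KA, treated KS and untreated KS. HOXB2 is lower in all 6 treated arrays than in all 6 untreated ones, and HOXB6 is higher in the treated arrays of each line.

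Read along the cluster, the HOXB differences in KS did not all have 1 sign. HOXB2, HOXB4, HOXB7, HOXB8, HOXB9 and HOXB13 had negative differences. HOXB5 and HOXB6, which are neighbours, had positive ones, as did HOXB3 between HOXB2 and HOXB4 (0.03, not called), and HOXB1 was at 0.00. Of the 10 HOXB genes, 3 passed the test in KA (1 higher, 2 lower), against 14.6% of all genes, and 5 in KS (2 higher, 3 lower; 4 without untreated replicate 3), against 30.3%. HOXB5 and HOXB6 both lie within HOXB-AS3, an antisense transcription unit whose own row had differences of -0.04 in KA and 0.02 in KS (limma adjusted p = 0.835 and 0.917). Which strand each probe reads was not stated. HOXB1 and HOXB13, at the ends of the cluster, had differences between -0.13 and 0.00 in both lines, and neither passed.

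Of the 10 protein-coding genes that flank the HOXB cluster, 5 on each side, 2 passed in KA, against 14.6% of all genes, and 5 in KS, against 30.3%. CALCOCO2, an autophagy receptor, rose in both lines, with 8.47 ± 0.12 in treated KA, against 7.87 ± 0.03 in untreated KA, and 8.18 ± 0.07 in treated KS, against 7.67 ± 0.10 in untreated KS (SD, n = 3 each). The changes were 0.60 and 0.52 (limma adjusted p = 0.00049 and 0.000265).

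In the HOXC cluster, 1 of 7 genes (14.3%) passed with decitabine in each line, against 14.6% of all genes in KA and 30.3% in KS. HOXC8, a gene of thoracic skeleton and spinal cord patterning in mouse, had 5.42, 5.30 and 5.46 in treated KS, against 5.02, 4.85 and 5.01 in untreated KS. It rose without overlap by 0.43 (1.35-fold, SE 0.11, limma adjusted p = 0.00981), in all 13 alternatives. In KA the treated values of 5.00, 5.36 and 4.92 overlapped the untreated values of 5.16, 4.98 and 4.90.

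HOXC11 had 3.74, 3.76 and 3.76 in treated KA, against 3.56, 3.43 and 3.53 in untreated KA, values close to the background quartile. It rose by 0.25 without overlap (SE 0.07, limma adjusted p = 0.0419), but 8 of 13 alternatives lost the call, including each fit without 1 array, with adjusted p of up to 0.154. In KS the difference was 0.02 (limma adjusted p = 0.912). HOXC11 overlaps HOTAIR. HOXC9, which specifies thoracic motor neurons in mouse, had group means of 6.05 ± 0.06 in treated KA, 5.97 ± 0.08 in untreated KA, 6.12 ± 0.05 in treated KS and 6.06 ± 0.11 in untreated KS (SD, n = 3 each), and passed in no comparison.

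The 9 HOXD genes gave no call with decitabine in limma at the adjusted threshold, in either line. At an unadjusted p under 0.05 there were 3 of 9 in KA (HOXD3, HOXD9 and HOXD11), against 28.2% of all genes, and 0 in KS, against 38.8%. In KA 8 of the 9 differences were negative, with a median of -0.08 and a range of -0.39 to 0.02, and the median over all genes was -0.02. HOXD1, which acts in pain-sensing neurons in mouse, had 5.62, 5.65 and 5.47 in treated KA, against 5.62, 5.71 and 5.60 in untreated KA, and 5.51, 5.69 and 5.58 in treated KS, against 5.50, 5.49 and 5.61 in untreated KS. HOXD4, a gene of neck vertebrae and hindbrain in mouse, averaged 5.56 ± 0.15 in treated KA, 5.54 ± 0.06 in untreated KA, 5.50 ± 0.04 in treated KS and 5.56 ± 0.17 in untreated KS (SD, n = 3 each). Both overlapped in every pair of groups compared.

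HOXA2, a gene of middle ear and hindbrain development, had 3.81, 4.29 and 4.12 in treated KA, against 3.71, 3.92 and 3.82 in untreated KA. In KS it had 3.90, 4.10 and 3.82 in treated arrays, against 3.71, 3.54 and 3.93 in untreated arrays. The groups overlapped in both lines, and the differences of 0.26 and 0.21 did not pass (limma adjusted p = 0.213 and 0.254).

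Between the untreated lines HOXD11 was the HOX gene that passed. HOXD11, which in mouse shapes the forearm and is fused to NUP98 in some human leukaemias, had 4.43, 4.26 and 4.37 in untreated KA, against 4.13, 4.19 and 4.04 in untreated KS. The groups did not overlap and the difference was 0.23 (1.17-fold, SE 0.07, limma adjusted p = 0.0299). It was lost in 7 of 13 alternatives, without untreated KS replicate 3 among them (difference 0.19, adjusted p = 0.0872), so that no HOX gene passed there. The treated arrays had 4.16, 4.25 and 4.16 in KA, against 4.24, 4.33 and 4.24 in KS, and overlapped. The other 26 genes had differences between -0.21 and 0.26. None of the 10 HOXB genes passed in limma, against 25.7% of all genes, and none reached an unadjusted p under 0.05, against 35.4%.

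**Figure D3:**
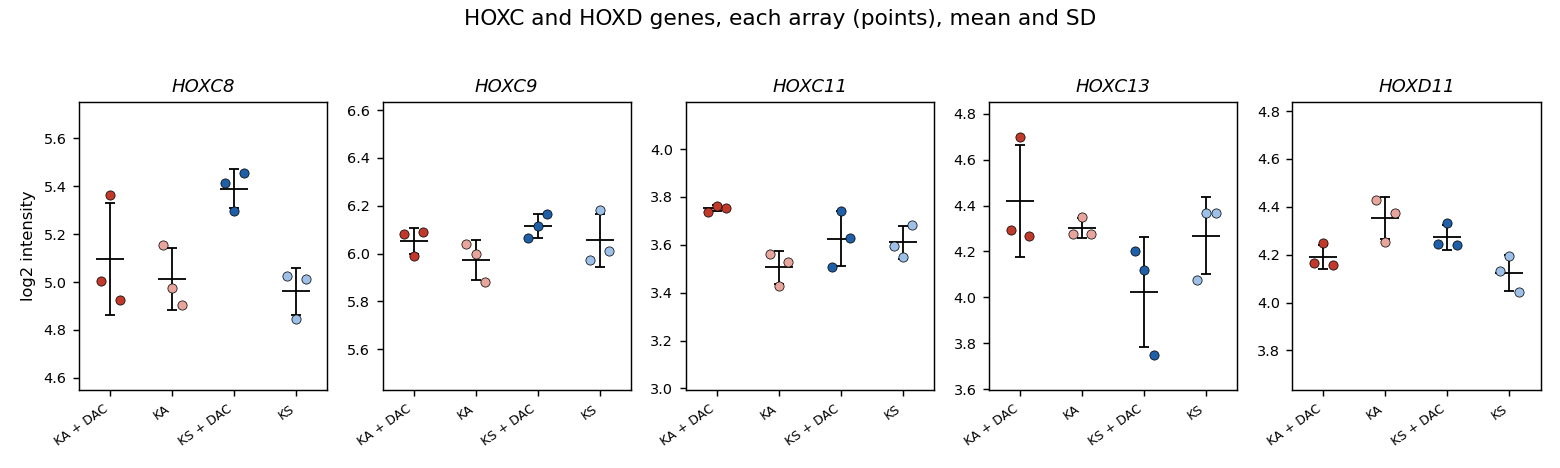
Log2 intensity of HOXC8, HOXC9, HOXC11, HOXC13 and HOXD11 on each array (points), with mean and SD (n = 3 arrays per group). HOXC8 is highest in treated KS (5.30 to 5.46), and HOXD11 in untreated KA (4.26 to 4.43) lies above untreated KS (4.04 to 4.19).

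Between the treated lines, HOXB9 and HOXC13 were higher and HOXB5 lower in KA. HOXB9 differed by 0.41 (1.33-fold, SE 0.08, limma adjusted p = 0.00219), with all 13 alternatives past the threshold. HOXB5 differed by -0.51 (1.42-fold, SE 0.14, limma adjusted p = 0.0169), and lost the call without treated KA replicate 2 or treated KS replicate 1. HOXC13, known from human mutations that affect hair and nails, had 4.29, 4.70 and 4.27 in treated KA, against 4.20, 4.12 and 3.75 in treated KS. Its difference of 0.40 without overlap (SE 0.14, limma adjusted p = 0.0458) was lost in 4 of 13 alternatives, with adjusted p of up to 0.197.

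The response to decitabine was also compared directly, as the response of KA minus that of KS. None of the 27 HOX genes passed in limma, against 6.74% of all genes (4.6% with the more positive response in KA and 2.14% with the more negative). That share rests on 1241 genes, which were 2049 without untreated KS replicate 3 and 564 without untreated KS replicate 1, and no HOX gene passed with any array left out. At an unadjusted p under 0.05 there were 5 (HOXB9, HOXC8, HOXC11, HOXD11 and HOXD12), or 18.5%, against 22.7% of all genes. HOXB9 had a difference of 0.34 (SE 0.12, limma adjusted p = 0.104) and passed when a trend and robust prior was used. HOXB2 and HOXB6, which moved in both lines, had differences of -0.02 and -0.07 (limma adjusted p = 0.923 and 0.835). A call in KS without one in KA, as for HOXB5, HOXB8 and HOXC8, was thus not shown to differ between the lines. For 26 of the 27 genes the 95% interval of the difference in response lay within 1 of no difference, and over the set it reached -1.02. The median difference was -0.11 over the HOX genes, against -0.003 over all genes, with 18 negative and 9 positive. With 1 array left out the HOX median was -0.145 to -0.068. The median absolute difference was 0.20, against 0.16 over all genes. These medians were not tested.

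Of the HOX cofactors, MEIS1 was lower in KA than in KS with and without decitabine, and PBX3 rose with decitabine in both lines. Of 9 TALE genes listed, 7 had rows. Decitabine moved 1 of 7 in KA, against 14.6% of all genes, and 3 of 7 in KS (2 without untreated replicate 3), against 30.3%. Untreated KA and KS differed in 2 of 7, against 25.7%, and treated KA and KS in 3 of 7, against 27.0%. The medians were 0.03 and 0.00 with decitabine in KA and KS and 0.04 between untreated lines.

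MEIS1, the partner of HOXA9 in acute leukaemia, had 4.65, 4.58 and 4.51 in untreated KA, against 6.19, 6.07 and 6.05 in untreated KS. With decitabine it had 4.90, 4.71 and 4.43 in KA, against 6.40, 6.39 and 6.52 in KS. Every KA array lay below every KS array. The difference was -1.52 between untreated lines (2.87-fold, SE 0.10, limma adjusted p = 2.56e-07) and -1.76 between treated lines (3.38-fold, SE 0.10, limma adjusted p = 5.79e-08), and both calls held in every alternative. With decitabine MEIS1 rose in KS by 0.34 (limma adjusted p = 0.0256), which was lost without treated KS replicate 3 or untreated KS replicate 2 or 3 (limma adjusted p = 0.0674 without the last, and up to 0.0942). In KA the difference was 0.10 (limma adjusted p = 0.581).

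PBX3, whose product binds DNA with HOX and MEIS proteins, had 7.05, 7.15 and 7.29 in treated KS, against 5.69, 5.75 and 6.14 in untreated KS. In KA it had 6.42, 6.28 and 6.36 in treated arrays, against 5.83, 5.91 and 5.96 in untreated arrays. The treated arrays were higher in both lines, without overlap. PBX3 rose 2.47-fold in KS (SE 0.11 on the log2 scale, limma adjusted p = 7.23e-06) and 1.37-fold in KA (SE 0.11, limma adjusted p = 0.015, lost without treated or untreated KA replicate 1). The response in KA was smaller than that in KS by 0.85 on the log2 scale (SE 0.16, limma adjusted p = 0.00995), and that call held in all 18 alternatives. Without untreated KS replicate 3 the response in KS was 1.45 (adjusted p = 4.45e-07).

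PBX4 was higher in untreated KA, with 6.30 ± 0.12, against 5.87 ± 0.13 in untreated KS (SD, n = 3 each; difference 0.44, limma adjusted p = 0.00623). PKNOX1, a MEIS relative, averaged 5.89 ± 0.03 in treated KA, against 5.63 ± 0.12 in treated KS (SD, n = 3 each; difference 0.26, limma adjusted p = 0.0151, lost in 3 of 13 alternatives).

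Markers of blood cells moved with decitabine beside the HOX and PBX3 changes. Of the 8 markers of K562, 1 rose in KA and 6 in KS (ALAS2, HBZ, EPOR, TAL1, GATA1 and HBE1), and their summed level, on the log2 scale, was 13.73 to 13.76 in treated KA, 13.68 to 13.77 in untreated KA, 13.77 to 13.80 in treated KS and 13.43 to 13.52 in untreated KS. ALAS2, the first enzyme of haem synthesis in erythroid cells, rose by 1.01 in KA and 2.47 in KS (limma adjusted p = 0.0464 and 6.98e-05). Without untreated KS replicate 3, in which ALAS2 was at 9.11 while the other untreated KS arrays had 7.61 and 7.40, ALAS2 also rose in KS (limma adjusted p = 2.65e-09). Of the 8 markers of monocytes and granulocytes, 1 (12.5%) was called in KA, against 14.6% of all genes, and 4 (50.0%) in KS, against 30.3%. All were higher with decitabine. FCGR3A, 1 of those called in KS, had 2.62 to 3.24 on all arrays, below 3.39. The other 7 lay above 3.39 in each group. The summed level of all 8 was 10.45 to 10.57 in treated KA and 9.83 to 9.90 in untreated KA. In KS it was 11.36 to 11.43 in treated arrays and 9.36 to 10.37 in untreated arrays. The called marker in KA was LYZ, the lysozyme gene (1.77, limma adjusted p = 0.00457), while 4 of the 8 had positive and 4 negative differences, with a median of 0.01. In KS all 8 were positive, with a median of 0.27. The part of either marker list in the PBX3 and HOX changes was not tested.

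Between untreated lines, where 25.7% of all genes were called, the calls included markers of several cell types. They were 3 of 8 for K562 (TAL1, HBZ and HBE1, all higher in KA) and 3 of 8 for monocytes and granulocytes (CD68 and MPO higher, LYZ lower in KA). Another 3 of 7 were epithelial (KRT19 and KRT8 higher, MUC1 lower in KA), 2 of 9 fibroblast and endothelial, and 1 of 7 lymphoid. Without untreated KS replicate 3, 26.5% of all genes were called. The K562 count was then 5 (4 higher in KA, and TFRC lower), and that of monocytes and granulocytes 4 (3 higher, 1 lower). LYZ differed by -1.20 with all arrays and by -0.61 without that array. ALAS2 differed by 0.89 (limma adjusted p = 0.0532) with all arrays and by 1.42 (limma adjusted p = 4.75e-07) without it. The lymphoid one was CD3D, which averaged 6.95 in untreated KA, against 4.67 in untreated KS, while 4 of the 7 lymphoid differences were negative, with a median of -0.03. The summed lymphoid level was 7.84 to 7.97 in untreated KA, against 7.10 to 7.24 in untreated KS, with 6 of 7 above 3.39 in each. The part of these markers in the MEIS1 difference was not tested.

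**Figure D4:**
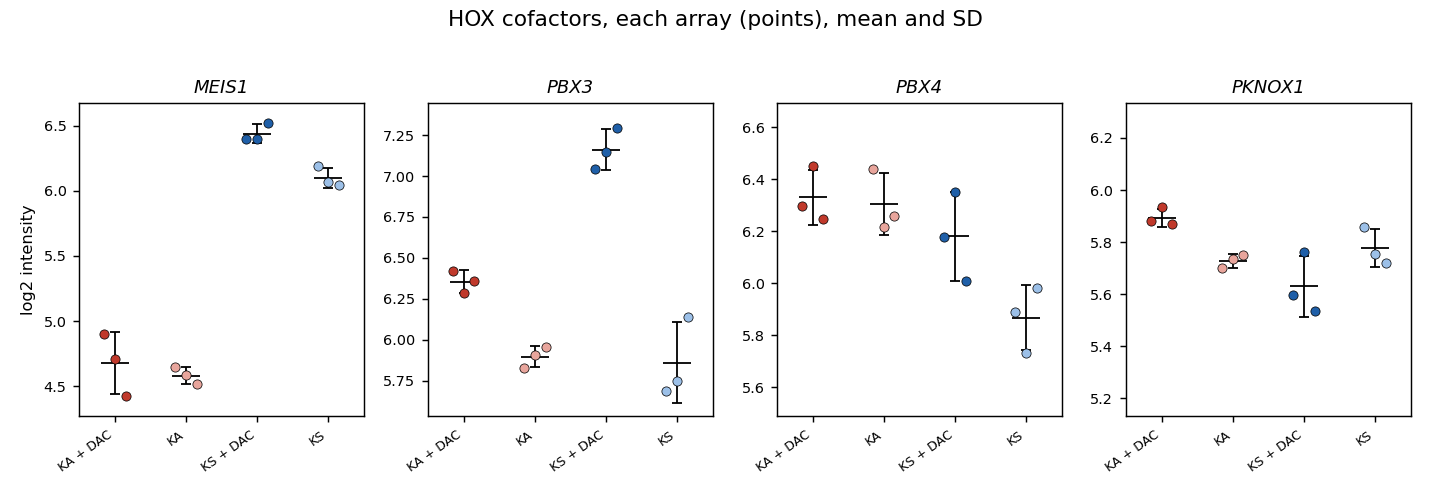
Log2 intensity of MEIS1, PBX3, PBX4 and PKNOX1 on each array (points), with mean and SD (n = 3 arrays per group). MEIS1 separates the lines (4.43 to 4.90 in KA, 6.05 to 6.52 in KS), and PBX3 is highest in treated KS (7.05 to 7.29).

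Among 26 genes of the MLL and trithorax side, which keep HOX genes active, 13 differed between untreated lines, 3 higher and 10 lower in KA (50.0%, against 25.7% of all genes, median -0.15, against 0.02). KMT2A, a histone methyltransferase of the group, averaged 9.06 ± 0.04 in untreated KA, against 9.44 ± 0.07 in untreated KS (SD, n = 3 each; difference -0.37, limma adjusted p = 0.00107). BRPF1, a scaffold of histone acetyltransferases, averaged 7.04 ± 0.11 in untreated KA, against 7.69 ± 0.10 in untreated KS (SD, n = 3 each; difference -0.66, limma adjusted p = 1e-04). KDM6B, a demethylase that removes the Polycomb mark, was higher by 0.40 in untreated KA (limma adjusted p = 0.000572). The histone methyltransferase NSD1 and the acetyltransferase KAT6B differed by -0.44 and -0.38 (limma adjusted p = 0.00473 and 0.00528).

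With decitabine 3 of these 26 passed in KA (2 higher, 1 lower; 11.5%, against 14.6% of all genes) and 11 in KS (2 higher, 9 lower; 42.3%, against 30.3%). HCFC1, a cofactor of MLL family complexes, fell by 0.25 in KA and 0.63 in KS (limma adjusted p = 0.0189, lost in 3 of 13 alternatives, and 1.61e-05). SETD1A, a histone methyltransferase, fell by 0.49 in KS (limma adjusted p = 0.000659). DOT1L, a histone H3 methyltransferase recruited by KMT2A fusion proteins, had 7.38, 7.35 and 7.17 in treated KS, against 7.94, 7.88 and 7.87 in untreated KS, and fell 1.51-fold (SE 0.07 on the log2 scale, limma adjusted p = 4.12e-05). MEN1, whose product menin tethers KMT2A, had 6.99, 6.91 and 6.75 in treated KS, against 7.43, 7.27 and 7.38 in untreated KS, and fell by 0.48 (limma adjusted p = 0.000319). Treated and untreated KS arrays did not overlap for either gene. In KA, DOT1L differed by -0.20 and MEN1 by -0.01 (limma adjusted p = 0.0739 and 0.922). AFF4, a scaffold of the super elongation complex, rose in both lines, by 0.39 in KA and 0.46 in KS (limma adjusted p = 0.00329 and 0.000293).

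Of 33 Polycomb genes listed, 28 had rows of their own, and BMI1 was not analysed here because it shares a row. Untreated lines differed in 11 of 28 (5 higher and 6 lower in KA, median -0.03; 39.3%, against 25.7% of all genes). EED, a core subunit of Polycomb repressive complex 2, had 7.39, 7.44 and 7.59 in untreated KA, against 8.79, 8.80 and 8.60 in untreated KS. The difference without overlap was -1.26 (2.39-fold, SE 0.09, limma adjusted p = 4e-07), and -1.36 between treated lines (2.57-fold, limma adjusted p = 1.59e-07). EZH2, the methyltransferase of that complex, averaged 9.36 ± 0.03 in untreated KA, against 9.33 ± 0.14 in untreated KS (SD, n = 3 each; limma adjusted p = 0.856). Of Polycomb repressive complex 1 and its variants, PHC3 differed by -0.71, RYBP by 0.42 and KDM2B by -0.40 between untreated lines (limma adjusted p = 2.03e-06, 0.00151 and 0.00067).

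Decitabine moved 7 of the 28 Polycomb genes in KA (6 higher, 1 lower) and 13 in KS (7 higher, 6 lower), against 14.6% and 30.3% of all genes, with medians of 0.00 and 0.02. PHF1, which binds a histone mark of active genes as part of Polycomb repressive complex 2, rose by 0.60 in KA (limma adjusted p = 0.000339). It also rose in KS, a call kept in 13 of 13 alternatives (0.29 to 0.42). JARID2, which helps to recruit the complex, averaged 8.91 ± 0.11 in treated KA, against 8.56 ± 0.03 in untreated KA, and 9.32 ± 0.03 in treated KS, against 8.68 ± 0.06 in untreated KS (SD, n = 3 each). It rose without overlap by 0.35 in KA and 0.64 in KS (limma adjusted p = 0.00627 and 2.8e-05). EZH1, the relative of EZH2, rose by 0.29 in KA and 0.58 in KS (limma adjusted p = 0.0116 and 3.37e-05). EZH2 fell by 0.32 in KS (limma adjusted p = 0.00492) and differed by -0.12 in KA (limma adjusted p = 0.315). PHC1 and PHC3, subunits of the complex that holds BMI1, rose in both lines, by 0.31 to 0.45 (limma adjusted p between 0.00036 and 0.00616), and the calls of PHC3 were lost with the mean of all its rows (limma adjusted p = 0.0781 in KA and 0.0507 in KS). Of the CBX proteins, which read the Polycomb mark, CBX7 rose by 0.40 in KA and CBX6 fell by 0.54 in KS (limma adjusted p = 0.0105 and 0.00212). CBX7 also rose in KS, a call kept in 10 of 13 alternatives (0.25 to 0.34).

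Retinoic acid and the CDX factors switch on HOX genes in the embryo. Of 20 such genes listed, 17 had rows, and decitabine moved 3 in KA (2 higher, 1 lower; 17.6%, against 14.6% of all genes) and 4 in KS (2 higher, 2 lower; 23.5%, against 30.3%). DHRS3, a retinal reductase, had 7.73, 7.64 and 7.46 in treated KA, against 8.35, 8.32 and 8.31 in untreated KA, and 7.81, 7.77 and 7.84 in treated KS, against 8.24, 8.21 and 8.22 in untreated KS. It fell without overlap by 0.72 in KA and 0.42 in KS (limma adjusted p = 0.000109 and 0.000725). CRABP2, a carrier of retinoic acid, and the receptor gene RXRA rose in KA by 0.52 and 0.24 (limma adjusted p = 0.0188 and 0.028, lost in 4 and 6 of 13 alternatives). In KS, ALDH1A1 rose by 0.59 and CYP26A1, which breaks retinoic acid down, by 0.37 (limma adjusted p = 0.000145 and 0.0144). Untreated lines differed in 4 (2 higher and 2 lower in KA; 23.5%, against 25.7% of all genes), among them the retinoic acid synthases ALDH1A2, higher in KA by 0.60, and ALDH1A1, lower in KA 1.61-fold (limma adjusted p = 3.8e-05 and 4.18e-05). The others were the retinoic acid receptor genes RARG (-0.63) and RARB (0.48; limma adjusted p = 0.000536 and 0.00205). RARB had 2.688 to 3.395 on the 12 arrays and group means at or below the quartile, so it was not shown to exceed background. CDX4, a known activator of HOX genes in blood progenitors, had group means of 3.16 to 3.34, at or below the quartile, and did not pass.

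Of 26 noncoding and small genes within the HOX clusters, 7 had rows. MIR196A1, whose mature sequence is given above, had 4.80, 4.83 and 4.77 in untreated KA, against 5.27, 5.25 and 5.05 in untreated KS. With decitabine it had 4.81, 4.79 and 4.54 in KA, against 5.08, 5.54 and 5.33 in KS. All KA arrays lay below all KS arrays. The difference was -0.38 between untreated lines (limma adjusted p = 0.0229, lost in 5 of 13 alternatives) and -0.60 between treated lines (limma adjusted p = 0.00124). The row covers the gene and does not separate the mature miRNA from its precursor. HOXB8, its known target, differed by -0.19 between untreated lines and 0.02 between treated lines (limma adjusted p = 0.186 and 0.908). MIR10A, whose mature sequence is also given above, had 1.42 to 2.14 on all arrays, below the quartile.

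Of 40 genes that flank the 4 clusters, decitabine moved 8 in KA (6 higher, 2 lower) and 17 in KS (7 higher, 10 lower), and the untreated lines differed in 12 (6 higher and 6 lower in KA). The shares over all genes were 14.6%, 30.3% and 25.7%. The medians were -0.01, -0.01 and -0.02. CALCOCO1, a transcriptional coactivator beside HOXC, had 7.11, 7.19 and 7.31 in treated KA, against 6.42, 6.47 and 6.44 in untreated KA, and 7.41, 7.46 and 7.51 in treated KS, against 6.55, 6.46 and 6.55 in untreated KS. It rose without overlap by 0.76 in KA and 0.94 in KS (limma adjusted p = 5.45e-05 and 6.35e-06). SNX10, an endosomal sorting protein beside HOXA, was higher by 0.83 in untreated KA (1.78-fold, limma adjusted p = 1.09e-05).

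HNRNPA1, an RNA-binding protein gene beside HOXC that has many processed pseudogenes, differed by -0.85 between untreated lines and by -0.70 with decitabine in KS (limma adjusted p = 0.00709 and 0.0196, the second lost in 4 of 13 alternatives). Its relative HNRNPA2B1, beside HOXA, fell without overlap by 0.44 in KA (lost in 3 of 13 alternatives) and by 0.70 in KS (limma adjusted p = 0.0181 and 0.000353). CREB5, a transcription factor gene on the other side of HOXA, rose without overlap by 0.74 in KA (limma adjusted p = 0.000902). Beside HOXD, LNPK, a gene of endoplasmic reticulum shape, was higher by 0.64 and IFT70B, a gene of transport in cilia, differed by -0.53 between untreated lines (limma adjusted p = 1.88e-05 and 0.00422).

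The other ANTP-class homeobox genes are the relatives of the HOX genes. Of 54 measured, decitabine moved 2 in KA (1 higher, 1 lower) and 2 in KS (both lower), which is 3.7% each, against 14.6% and 30.3% of all genes. The median changes were -0.07 and 0.01. In KS the 2 were HHEX and DBX2, and DBX2 had 2.59 to 3.14 on all arrays, below the background quartile of 3.39. The DBX2 call held in 8 of 12 alternatives. Untreated lines differed in 6 (5 higher and 1 lower in KA; 11.1%, against 25.7% of all genes). HHEX, needed for early blood and liver development, had 7.01, 7.11 and 7.06 in treated KA, against 7.38, 7.37 and 7.26 in untreated KA, and 7.38, 7.29 and 7.26 in treated KS, against 7.72, 7.66 and 7.81 in untreated KS. It fell without overlap by 0.28 in KA and 0.42 in KS (limma adjusted p = 0.0197 and 0.000528), and the call in KA was lost in 4 of 13 alternatives, with adjusted p of up to 0.0737. DLX2, a forebrain and jaw gene, had 6.03, 6.02 and 6.03 in treated KA, against 5.67, 5.62 and 5.74 in untreated KA, and rose by 0.34 (limma adjusted p = 0.00831).

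**Figure D5:**
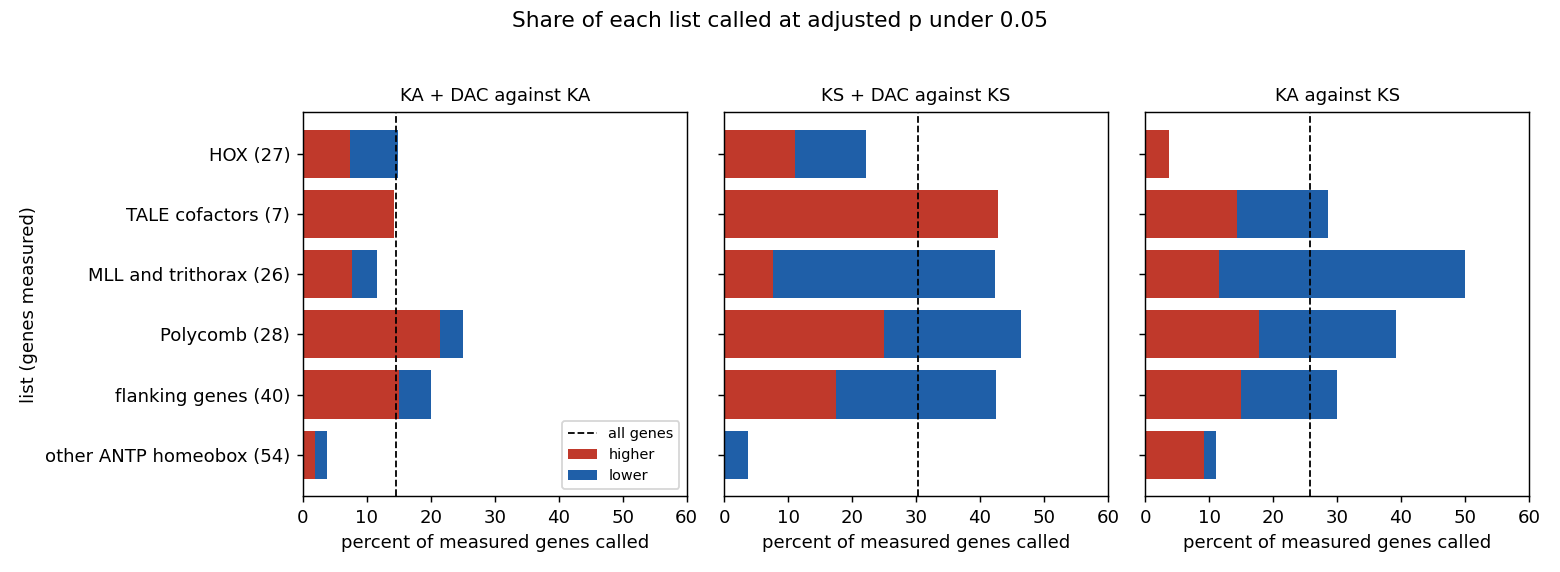
Share of measured genes called at an adjusted p under 0.05 (x axis, percent) with decitabine in KA, with decitabine in KS and between untreated lines. Bars (y axis) are HOX genes (27), TALE cofactors (7), the MLL and trithorax side (26), Polycomb genes (28), flanking genes (40) and other ANTP-class genes (54). The dashed line is the share over all genes. HOX genes stand at 14.8% with decitabine in KA, against 14.6% of all genes, and at 22.2% in KS, against 30.3% of all genes.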

How the data were processed

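Gene expression was measured on 12 Affymetrix arrays of total RNA, 3 in each of 4 groups, mapped by their titles. The authors deposited log2 intensities for 33297 transcript clusters. Their background correction, summarization and normalization are not given in the sources used. The values were used unscaled. Per the platform annotation, 19460 clusters carry 1 gene symbol, 1754 carry several and 12083 none. Of those with 1 symbol, 19429 matched RefSeq (GRCh38.p14) by Entrez identifier, and 18417 genes were each represented by their brightest cluster.

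The limma package (version 3.58.1, in R 4.3.3) fitted the 4 group means to all 12 arrays at once. Its empirical Bayes step added 4.71 degrees of freedom to the 8 of the residuals. Adjusted p-values are Benjamini-Hochberg over all genes. The fit was tested on simulated data. The number of arrays limits the precision. Plots were made in Python 3.11.15 with matplotlib 3.10.9.

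The members and gene lists were chosen with earlier results of these data known. Array values are given for HOX genes called in any comparison and the 2 brightest of each cluster; from each list, the genes described were drawn from the at most 4 called genes per comparison with the largest change, not all of which are described, plus MEIS1, PBX3, KMT2A, MEN1, DOT1L, EZH2, BMI1 and CDX4. ALAS2, LYZ and CD3D were chosen after their values were seen. Alternatives were quantile normalization, median centring, the mean of a gene's rows, genes above the quartile only, the compared groups only, a trend and robust prior, the replicate number as a block, and leaving out each array. Lists are described by counts and medians, with no test.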

Additional observations from a re-analysis of the deposited data

Results flagged for a closer look

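No HOX gene had a response to decitabine that differed between KA and KS in limma, against 6.74% of all genes. From the lists other than the cell type markers, 7 genes did. They were 1 of 7 TALE genes, 4 of 26 on the MLL and trithorax side and 2 of 40 flanking genes. The Polycomb (28), CDX and retinoid (17), noncoding (7) and other ANTP-class (54) lists had 0 calls. Among the 8 K562 markers HBZ was called, with the more negative response in KA. Differences are responses of KA minus KS on the log2 scale. Groups of 3 arrays were too small for a test of single outlying arrays. The TALE cofactor PBX3 had -0.85 (limma adjusted p = 0.00995). On the MLL and trithorax side, CXXC1 had 0.49, MEN1 0.46, DOT1L 0.39 and HCFC1 0.38 (limma adjusted p = 0.014, 0.0229, 0.0334 and 0.0265). Next to the HOX clusters, IFT70B had 0.67 and SNF8 0.37 (limma adjusted p = 0.0321 and 0.0479).

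The calls of PBX3 and CXXC1 held in all 18 alternatives. Those of MEN1, DOT1L, HCFC1, IFT70B and SNF8 held in 11, 7, 9, 11 and 5 of 18. Without untreated KS replicate 3, where 11.1% of all genes were called, ALDH1A1, HNRNPA1 and NSD1 were called too. CXXC1, a CpG-binding subunit of a histone methyltransferase complex, had 6.33, 6.37 and 6.44 in treated KA, against 6.12, 6.21 and 6.31 in untreated KA, and 5.98, 5.97 and 5.90 in treated KS, against 6.32, 6.21 and 6.30 in untreated KS. It fell in KS by 0.33 (limma adjusted p = 0.00287), and the difference in KA was 0.16 (limma adjusted p = 0.147).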

How the results depend on the processing

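Of the 14 calls of HOX genes in the 5 comparisons, 7 held in every alternative (HOXB2 and HOXB6 with decitabine in both lines, HOXB9 and HOXC8 with decitabine in KS, HOXB9 between treated lines), 7 were lost in at least 1, and all 14 kept their sign throughout. Between untreated lines the count of HOX genes called was 0 with the compared groups only, with a trend and robust prior and with the replicate block, and 0 to 2 with 1 array left out, against 1 as reported; the HOXD11 call is thus unstable. With 1 array left out it was 2 to 3 with decitabine in KA (4 as reported), 4 to 7 with decitabine in KS (6) and 2 to 3 between treated lines (3). For the difference of responses it was 1 (HOXB9) with a trend and robust prior and 0 with any array left out. Over all genes, the difference of responses gave 1241 calls, 1918 with a trend and robust prior, 778 with the replicate block and 564 to 2049 with 1 array left out, lowest without untreated KS replicate 1 and highest without untreated KS replicate 3. Decitabine in KA gave 1653 to 2002 calls over all genes with 1 array left out, against 2694, and fits with fewer arrays have fewer degrees of freedom. The other causes were not tested. Arrays with the same replicate number did not deviate together (18 pairs, r between -0.26 and 0.187, 2 above 0.1). The labels do not say whether such arrays were handled together, and low correlations cannot exclude it. Signal limits HOXC5, HOXD3, HOXD10 and HOXD12, which had group means at or below the background quartile.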
